A study of Homo sapiens with 31 samples.

Results

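Transcripts that encode 10 secreted signals of inflammation were followed in libraries labelled as PANC-1 cells, an established human pancreatic cancer cell line: the chemokines CCL20, CXCL8, CXCL1, CXCL2, CXCL3, CCL2 and CCL5, and the cytokines IL6, IL11 and LIF. They were chosen by name as transcripts known for AU-rich elements in their 3′ ends. The rule uses no measured value, but earlier results of these data were known when the members were chosen. All 10 were found by symbol among 57992 genes of the steady-state tables and 43682 genes of the actinomycin D tables. The steady-state groups were 3 libraries of KHSRP knockout cells (KO) and 3 of wild-type cells, labelled NC. The actinomycin D groups carried the same 2 genotype labels, with 2 libraries of each at 0, 2, 4, 6 and 8 h. The labels give no clone number, no growth conditions and no dose of actinomycin D, an inhibitor of transcription, and nothing in them states that replicates are separate cultures; the p-values therefore reflect the spread of these libraries alone, which may be technical. Another 5 samples of crosslinked RNA were not analysed here.

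AU-rich elements are stretches of A and U in the 3′ untranslated region that shorten the life of many inflammatory transcripts. KHSRP is an RNA-binding protein known to bind such elements and to bring in deadenylating and exonuclease enzymes, while proteins such as ELAVL1 bind them and slow decay. Most of these genes are switched on by NF-kappaB, a transcription factor held inactive in the cytoplasm by inhibitors such as NFKBIA. CXCL1, CXCL2, CXCL3 and CXCL8 attract neutrophils through CXCR2, CCL2 attracts monocytes through CCR2, CCL5 attracts T cells, and CCL20 attracts lymphocytes and dendritic cells through CCR6. IL6, IL11 and LIF each bind a receptor of their own and signal through the shared subunit IL6ST, the JAK kinases and STAT3. The 3′ untranslated sequences were not analysed here, so the AU-rich content of the members was not measured.

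In hg19 the CXC chemokine genes lie together on chromosome 4: CXCL8 at 74606286 to 74609433 and CXCL1 at 74735110 to 74737025 on the plus strand, CXCL3 at 74902306 to 74904406 and CXCL2 at 74962757 to 74964912 on the minus strand. CCL2 (32582304 to 32584222, plus strand) and CCL5 (34198495 to 34207364, minus strand) are on chromosome 17, and CCL20 is on chromosome 2 (228678558 to 228682272, plus strand). IL6 is on chromosome 7 (22766819 to 22771617, plus strand), IL11 on chromosome 19 (55875750 to 55881831, minus strand) and LIF on chromosome 22 (30636442 to 30642748, minus strand). CXCL1, CXCL2 and CXCL3 are close copies that can share reads, so single values of these 3 are uncertain. Exons of IL6-AS1 overlap those of IL6, and exons of LIF-AS1 and LIF-AS2 overlap those of LIF. Whether the counting used strand is not stated in the labels or file headers, so reads of IL6 and LIF cannot be told apart from those of their antisense partners. CCL5 is also listed on 1 further contig, with which reads could be shared.

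The 250 bases before the start of 7 members were held by the RefSeq promoter table (GRCh38.p14); CCL2, CCL5 and LIF were not in it. The sequences below show what the chemokine promoters share. Capitals mark the letters GGNNTTTCC, a form of the NF-kappaB site, searched on both strands (in the CCL20 line the match is on the other strand), or in the IL11 line TGANTCA, a form of the AP-1 site; each match starts at the stated number of bases before the gene's start.
CXCL8, chr4:73740458-73740506, plus strand, 91 bases before: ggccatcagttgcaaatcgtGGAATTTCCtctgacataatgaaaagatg
CXCL1, chr4:73869295-73869343, plus strand, 78 bases before: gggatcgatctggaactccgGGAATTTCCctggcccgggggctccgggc
CXCL2, chr4:74099244-74099292, minus strand, 77 bases before: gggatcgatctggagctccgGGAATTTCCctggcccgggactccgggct
CXCL3, chr4:74038739-74038787, minus strand, 78 bases before: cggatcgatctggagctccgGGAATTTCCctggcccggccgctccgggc
CCL20, chr2:227813743-227813791, plus strand, 79 bases before: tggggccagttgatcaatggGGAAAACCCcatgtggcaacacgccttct
IL6, chr7:22727108-22727156, plus strand, 72 bases before: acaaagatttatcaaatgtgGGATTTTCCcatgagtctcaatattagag
IL11, chr19:55370533-55370579, minus strand, 96 bases before: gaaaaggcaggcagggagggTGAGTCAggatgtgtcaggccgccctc

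The first motif matched in 6 of the 7 members, all but IL11, and in 5.48% of 35116 promoters of the table. CXCL1, CXCL2 and CXCL3 each held another match, 53 bases before the start. The second motif matched in CXCL8 and IL11, and in 6.57% of all promoters. The 250 bases of CXCL1 were identical to those of CXCL3 in 81.4% of aligned columns and to those of CXCL2 in 67.9%, gaps counted as differences, against 42.8% for CXCL1 and CXCL8. The motifs were chosen as textbook forms with the promoters at hand, and a match is a description of letters, not a measured site.

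The steady-state libraries held 33706181 to 43278138 counts and the actinomycin D libraries 19177934 to 25768060. KHSRP was lower in KO than in NC within each set. In the steady state it had 370 to 412 counts in KO against 2208 to 2752 in NC. That was 9.49 to 10.6 against 64.4 to 65.7 CPM (counts scaled to library size by TMM, the level used below unless another is named). Under actinomycin D it stood at 134 to 156 CPM in KO against 375 to 460 CPM in NC. In CPM the KO label of that set thus lay above NC of the steady state. The 2 sets were scaled apart, and this difference was not tested. The actinomycin D labels differed in more than KHSRP. CDKN2A, which PANC-1 is known to have lost, stood at 2728 to 5476 counts in the 10 libraries labelled NC, at 0 in the 10 labelled KO, and at 6 counts or fewer in every steady-state library. The CDKN2A counts of these 10 NC libraries are at odds with their PANC-1 label. Whether the 2 labels of this set come from the same cell line was not tested. Of 2 ductal keratins, KRT19 was at 0 to 0.672 CPM in the NC label and at 372 to 415 CPM in the KO label, while KRT7 went the other way, at 541 to 961 CPM in NC and 8.61 to 19.1 CPM in KO. KRT8 was at 1405 CPM or more in every library, and MS4A1, a B cell marker, was at 0 in all. PTPRC, the general white cell marker, reached at most 0.146 CPM, while CD68, a lysosomal gene also used as a macrophage marker, was at 111 to 247 CPM in the KO label, 9.95 to 13.8 CPM in the NC label and 60.4 to 114 CPM in the steady state. Some other cell type markers also split the actinomycin D labels, in both directions. PDGFRB stood at 18.1 to 26.5 CPM in NC and 0 to 0.505 in KO, and CDH5 at 1.64 to 3.95 and 0 to 0.184. KDR stood at 0 in NC and 7.17 to 10.7 CPM in KO, and EPCAM at 0.224 to 1.16 and 4.70 to 9.85. The share of all genes that differed from 0 h of the same label was highest at NC 4 h, with 51.5%, and at KO 6 h, with 47.7%. It was 31.8%, 4.42% and 3.21% at NC 2, 6 and 8 h and 9.16%, 27.7% and 22.1% at KO 2, 4 and 8 h.

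In steady-state NC cells CCL2 was by far the most abundant member, at 122 ± 7.06 TPM (a level that corrects for length; SD, n = 3). LIF followed at 10.7 ± 1.20, CXCL8 at 6.97 ± 0.440, CXCL1 at 6.10 ± 0.437 and CCL20 at 5.65 ± 0.716 TPM. Below these stood CXCL2 at 2.42 ± 0.265, CCL5 at 2.23 ± 0.367, IL11 at 0.933 ± 0.101 and CXCL3 at 0.463 ± 0.0404 TPM. The libraries of CXCL1 and CCL20 overlapped, as did those of CXCL2 and CCL5; all other neighbours in this order were apart. In KO cells CCL2 still led, at 108 ± 11.8 TPM, and LIF came next at 11.5 ± 1.47 TPM, but CCL20, at 1.59 ± 0.214, overlapped with CXCL2, and CCL5, at 0.267 ± 0.0473, overlapped with CXCL3. IL6 had 1, 0 and 3 counts in KO and 2, 3 and 0 in NC, too low to read, and was not tested.

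The steady-state comparison asked which members differed in cells labelled KHSRP knockout. All 7 chemokines were lower in KO, by 1.35-fold for CCL2 up to 9.60-fold for CCL5, and no member was called higher. In bulk RNA, fewer cells that make a transcript and less of it per cell cannot be told apart. IL11 and LIF, at 0.08 and -0.09 on the log2 scale, did not pass. With edgeR's quasi-likelihood test and Benjamini-Hochberg adjustment over 17240 genes, 7 of 9 tested members were called, all lower, where 50.6% of all genes were called, 26.3% lower and 24.4% higher. The median log2 change was -0.67 over the 9 members and 0.02 over all genes. In the same 7 the libraries did not overlap between the groups, KO lower in each; 60% of all genes did not overlap, 29.6% with KO lower and 30.4% with KO higher.

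CCL5, the T cell attractant, had 21, 28 and 36 counts in the KO libraries and 203, 291 and 297 in NC. It stood at 0.705 ± 0.115 CPM in KO and 6.84 ± 0.868 in NC (SD, n = 3; log2 change -3.26, SE 0.18, adjusted p = 1.18e-05 by edgeR). CCL20, the ligand of CCR6, had 83, 97 and 89 counts in KO and 341, 346 and 421 in NC. Its level was 2.27 ± 0.187 against 9.68 ± 1.32 CPM (-2.10, SE 0.14, adjusted p = 2.13e-05). These were the 2 largest differences, and every KO library lay below every NC library.

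Among the neutrophil chemokines, CXCL8 stood at 15.9, 11.8 and 9.42 CPM in KO and at 32.9, 28.0 and 28.9 CPM in NC (log2 change -1.28, SE 0.16, adjusted p = 0.000239 by edgeR). CXCL3 was low throughout, with 19, 21 and 30 counts in KO and 45, 58 and 40 in NC (-1.08, SE 0.24, adjusted p = 0.00477). CXCL2 stood at 4.42, 4.15 and 3.80 CPM in KO and at 6.36, 5.75 and 7.50 in NC (-0.67, SE 0.13, adjusted p = 0.00268). CXCL1 stood at 11.3, 9.84 and 8.73 CPM in KO and at 17.2, 15.2 and 14.3 in NC (-0.65, SE 0.12, adjusted p = 0.00151). For each of these 4 genes the highest KO library was below the lowest NC library. In TPM, by contrast, the groups of CXCL1 overlapped, with KO at 4.00 to 5.73 and NC at 5.62 to 6.47.

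CCL2, the monocyte attractant, stood at 142, 138 and 133 CPM in KO and at 198, 170 and 192 CPM in NC (log2 change -0.44, SE 0.08, adjusted p = 0.00159 by edgeR). This was the smallest difference among the chemokines; in TPM its groups overlapped, with KO at 99.1 to 121 and NC at 114 to 127. With offsets that remove the trend of the change with transcript length, the log2 change was -0.55 for CCL2 and -0.75 for CXCL1, and both were still called. LIF stood at 93.9, 101 and 117 CPM in KO and 109, 120 and 102 in NC (-0.09, SE 0.10, adjusted p = 0.490). IL11 stood at 4.10, 4.08 and 3.85 CPM in KO and 3.56, 4.06 and 3.76 in NC (0.08, SE 0.12, adjusted p = 0.620). The 2 groups of each cytokine overlapped in CPM. In TPM those of LIF overlapped too, while IL11 stood at 1.49, 1.21 and 1.32 TPM in KO, above all of NC at 0.88, 1.05 and 0.87.

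**Figure D1:**
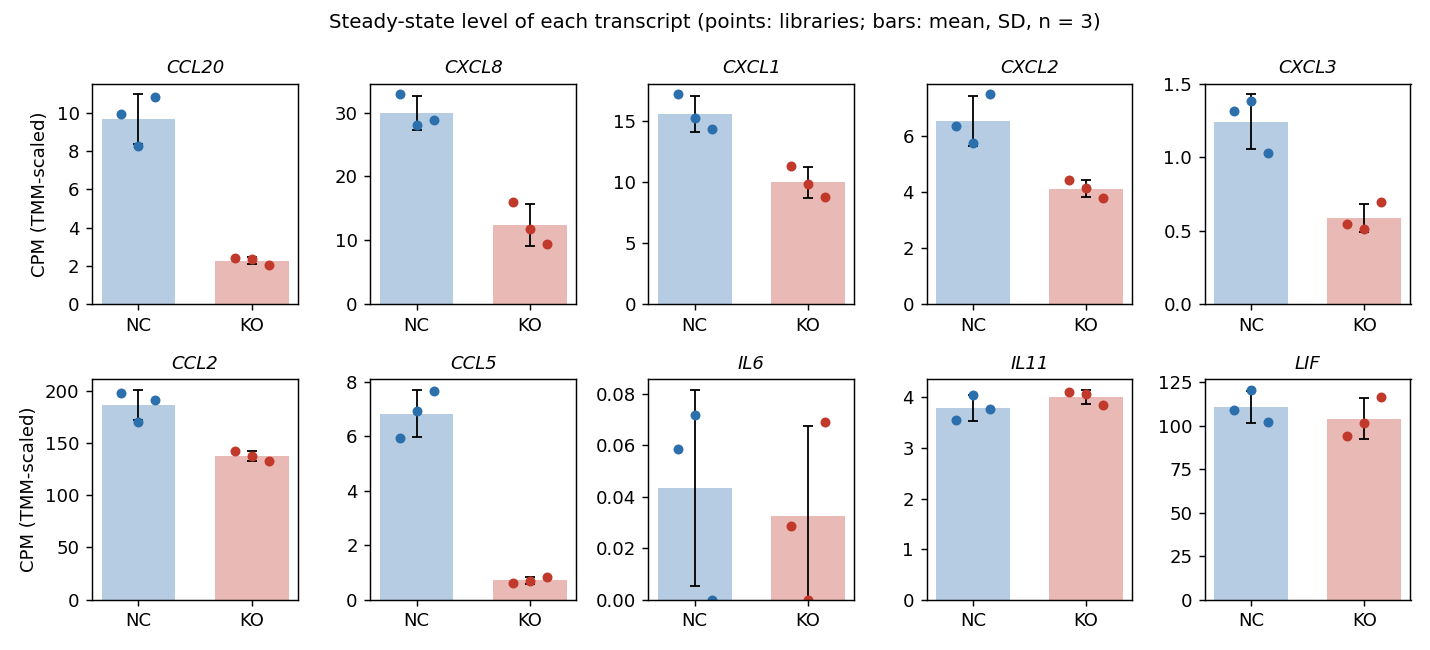
Steady-state level of each of the 10 transcripts in CPM after TMM scaling (linear axes from 0, one per gene); points are libraries, bars are means and error bars the SD of 3 libraries, NC in blue and KO in red. The KO points lie below all NC points for the 7 chemokines, while IL11 and LIF overlap and IL6 holds 0 to 3 counts.

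The receptors and signalling genes around the members were counted from lists chosen by name. Of all genes, 26.3% were called lower and 24.4% higher in this comparison. Of 15 receptors of the members, 5 were tested in the steady state; 3 were lower and 1 was higher in KO. The 3 lower ones serve the IL6 family: IL6ST, the shared signalling subunit, at 240 ± 69.7 against 467 ± 29.2 CPM (log2 change -0.96, SE 0.17), OSMR at -0.74 (SE 0.10) and LIFR at -0.66 (SE 0.15). With length-adjusted offsets 2 receptors were lower and 0 higher. Of 7 signalling genes downstream of IL6ST, 3 were lower and 1 was higher: JAK2 at -0.98 (SE 0.19), PTPN11 at -0.82 (SE 0.14) and JAK1 at -0.31 (SE 0.08) were the lower ones. With length-adjusted offsets 2 of these signalling genes were lower and 1 was higher.

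Of 38 other cytokine and chemokine ligands, 18 were tested, 5 lower and 1 higher in KO. The shares of all genes, for this and the next 2 lists, were 26.3% lower and 24.4% higher. TNFSF10, a death ligand of the TNF family, stood at 1.11 ± 0.118 against 4.84 ± 0.562 CPM (log2 change -2.13, SE 0.16), CNTF, a neurotrophic cytokine of the IL6 family, at -1.50 (SE 0.25) and CX3CL1, a membrane-bound chemokine, at -1.11 (SE 0.09). The 23 genes of NF-kappaB and its inducers went both ways, 8 higher and 6 lower, with REL, a DNA-binding subunit, at -1.28 (SE 0.17), CHUK, a kinase that releases NF-kappaB, at -1.07 (SE 0.14) and TRAF6, an adaptor, at -0.84 (SE 0.13). Of 22 factors that bind AU-rich elements or degrade cytokine messages, 15 were lower and 0 were higher (median -0.59). After KHSRP itself (-2.70, SE 0.08) the lowest were RC3H2, a decay factor of the roquin family, at -1.60 (SE 0.11) and TIA1, a translational repressor, at -1.59 (SE 0.11). With length-adjusted offsets 13 of these factors were lower and 1 was higher (median -0.38).

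At 0 h of the actinomycin D set the same chemokines differed between the labels in the other direction. All 7 were higher in the KO label, and in NC most were close to the limit of reading. LIF was higher and IL11 lower in the KO label, and IL6 did not pass. These are differences between labels that differ in more than KHSRP, and which of the differences they go with cannot be told apart. At 0 h the KO pair lay above the NC pair in all 7 chemokines, as in 42.9% of all genes. By edgeR's quasi-likelihood test 9 of 10 members were called, 8 higher and 1 lower, where 67.1% of 17715 genes were called, 35.5% higher and 31.6% lower. Over all 10 KO and 10 NC libraries, 7 members lay higher in every KO library, IL11 lay lower, and CXCL2 and IL6 overlapped; 38.2% of all genes did not overlap, 19.4% with KO higher and 18.7% with KO lower.

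CCL2 had 3397 and 2797 counts in the 2 KO libraries of 0 h and 22 and 12 in NC (162 and 150 against 0.986 and 0.563 CPM; log2 change 7.64, SE 0.16, adjusted p = 5.10e-32 by edgeR). CXCL1 had 762 and 757 counts against 0 and 8 (7.67, SE 0.31, adjusted p = 1.55e-23), and CCL5 had 1009 and 1012 counts against 16 and 6 (6.65, SE 0.25, adjusted p = 4.22e-25). CXCL8 had 504 and 359 counts against 6 and 6 (6.27, SE 0.33, adjusted p = 1.47e-20), and CCL20 had 343 and 246 against 4 and 0 (7.25, SE 0.47, adjusted p = 5.89e-17). Against 22 counts or fewer per NC library the size of these changes is loose, but no NC library came near a KO library. CXCL3 had 28 and 36 counts against 0 and 0, which makes it at least 23.7-fold higher in KO when the NC pair is set at a floor of 3 counts over the pair (adjusted p = 2.10e-06). CXCL2 had 26 and 15 counts against 6 and 0 (2.86, SE 0.80, adjusted p = 0.00192); without NC 0 h replicate 2 it stood at 1.91 with an adjusted p of 0.0519, so its call rests on that library.

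LIF had 1566 and 1501 counts in KO and 524 and 541 in NC (74.7 and 80.6 against 23.5 and 25.4 CPM; log2 change 1.67, SE 0.09, adjusted p = 1.48e-19 by edgeR). IL11 was the member that went the other way, at 2.05 and 2.15 CPM in KO and 5.96 and 4.41 in NC (-1.30, SE 0.30, adjusted p = 0.000190). The deposited molecule scale put the median gene 0.90 (log2) above NC; there IL11 stood at -0.60 and was no longer called (adjusted p = 0.0995), while LIF stood at 2.68. Scaling to ribosomal protein genes put the median gene 0.50 (log2) above NC, and IL11, at -0.86, was called. IL6 had 8 and 4 counts in KO and 4 and 6 in NC. The directions of the 9 called members were the same under each of these scalings.

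**Figure D2:**
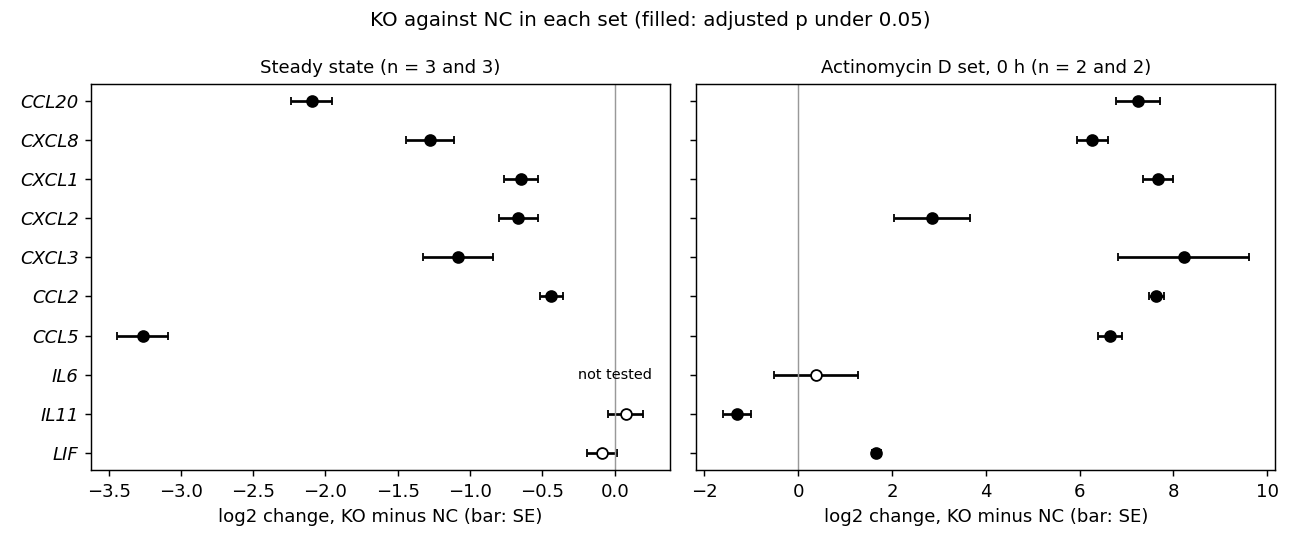
Log2 change, KO minus NC, of each transcript in the steady state (left, 3 against 3 libraries) and at 0 h of the actinomycin D set (right, 2 against 2 libraries); bars are standard errors and filled points have an adjusted p under 0.05 by edgeR. The 7 chemokines lie left of 0 in the steady state and right of 0 at 0 h, where the point of CXCL3 depends on the prior count because both NC libraries hold 0 counts.

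Per length, the order of the members also differed between the labels. Over the 10 KO libraries the median RPKM (a level per length and library size) was 92.6 for CCL2, 15.2 for CXCL1, 9.34 for LIF, 7.49 for CCL5, 6.68 for CCL20 and 5.25 for CXCL8, and 0.637, 0.462 and 0.438 for CXCL3, IL11 and CXCL2. CCL2, CXCL1 and LIF were apart from one another, while neighbours from LIF to CXCL8 and from CXCL3 to CXCL2 overlapped. In the NC label LIF led at 2.87 RPKM, followed by IL11 at 1.26, and the median of every other member was below 0.5; here all neighbours overlapped across the 10 libraries.

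At 0 h 35.5% of all genes were called higher and 31.6% lower in the KO label on TMM-scaled counts. These are the shares to set beside each list count of this paragraph on that scale. Among the listed genes, 8 of 18 other ligands were higher and 2 lower. CX3CL1 stood at 37.2 ± 2.86 against 0.0897 ± 0.127 CPM, and CTF1 and CXCL5, a neutrophil chemokine, had 54 to 83 and 15 to 22 counts in KO and 0 in both NC libraries. Of 7 receptors tested 5 were higher and 2 lower. ACKR3, a scavenging chemokine receptor, had 0 counts in KO and 161 to 207 in NC, while IL11RA, the receptor of IL11, was higher in KO (log2 change 1.78, SE 0.23) and CCR6 held 6 to 13 counts against 0 to 2. Of the 23 NF-kappaB genes 15 were higher and 6 lower, among them IL1R1, the interleukin-1 receptor, with 318 to 458 counts against 0 and 0, IRAK2, a kinase downstream of it, at 5.47 (SE 0.23), and BIRC3, an NF-kappaB target, at 321 ± 7.49 against 7.93 ± 0.391 CPM. The decay factors went both ways, 7 higher and 11 lower on TMM-scaled counts. Scaled to ribosomal protein genes 10 were higher and 4 lower, where 8798 of 17715 genes were higher and 3521 lower. On the molecule scale 16 were higher and 3 lower, where 10135 of all genes were higher and 2314 lower. ZFP36, which binds AU-rich elements and promotes decay, stood at 2.85 (SE 0.10), KHSRP at -1.63 (SE 0.05) and CNOT7, a deadenylase, at -1.34 (SE 0.07). Of the IL6-family signalling genes 3 were higher and 2 lower, with PIAS3 at 1.60 (SE 0.09), JAK1 at 0.94 (SE 0.05) and JAK2 at -0.87 (SE 0.18).

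The time courses addressed the question of transcript lifetime. CPM is relative to the total of each library, so a fall shared by most transcripts does not show on this scale. No member had a called slope over time in either label: edgeR called 0 of 10 members, and 0 of 17715 genes, for a slope in NC, a slope in KO or a difference of slopes. At an unadjusted p under 0.05 stood 2 members for the difference of slopes (CXCL3 and CCL5), and DESeq2 called 0 members and 4 genes. The smallest SE of a slope was that of LIF, whose log2 change per hour was 0.05 (SE 0.02) in KO and -0.002 (SE 0.02) in NC. A slope fits a straight line, so a course that peaks and falls back, as that of CXCL2 in KO, counts as spread around it. Without the libraries labelled NC 4 h and KO 6 h, edgeR called 0 of 17191 genes for either slope or their difference. The absence of a called slope therefore does not show an unchanged lifetime. The deposited molecule values put the median gene 1.17 (log2) below 0 h at NC 8 h and 1.77 below at KO 8 h; on that scale 3 members had a called slope in KO: CCL2 at -0.21 per hour (SE 0.06), CCL5 at -0.22 (SE 0.08) and LIF at -0.12 (SE 0.04). These slopes stood beside a median of -0.17 over all genes. On that scale 8614 of 17715 genes had a called slope in KO, 8605 of them falling. In NC on that scale 7528 of 17715 genes had a called slope, 7515 of them falling. LIF was called there at -0.15 per hour (SE 0.04), beside a median of -0.15, and CXCL3, at 0 to 10 counts, was too low to read.

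Single times differed from 0 h for some members, and the test over all 5 times called 7 of 10 in NC (54.7% of all genes) and 6 of 10 in KO (55.9%). Without the libraries labelled NC 4 h and KO 6 h these counts were 3 and 2, CCL20, CCL5 and CXCL3 in NC and CCL2 and LIF in KO, where 39.3% and 41.8% of all genes were called. The courses of the 2 labels differed from each other in 8 members, where 55.3% of all genes were called, and in 4 without those libraries (33.8% of all genes). With all libraries CXCL1 (adjusted p = 0.122) and CCL2 (adjusted p = 0.936, edgeR) were the members not called. At single times the calls among members were 1, 6, 1 and 0 at 2, 4, 6 and 8 h in NC, where 31.8%, 51.5%, 4.42% and 3.21% of all genes were called, and 1, 2, 4 and 2 in KO, where 9.16%, 27.7%, 47.7% and 22.1% were called. The comparisons of one label share their 0 h libraries. In NC, CCL20, CXCL1 and CXCL3 held 0 to 10 counts in every library, so their calls are not read further.

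IL6 was nearly absent except at NC 4 h. Its counts in the NC label were 4 and 6 at 0 h, 25 and 38 at 2 h, 165 and 211 at 4 h, 4 and 11 at 6 h and 14 and 0 at 8 h. At 4 h it stood at 7.76 and 8.72 CPM against 0.179 and 0.282 at 0 h (log2 change 5.13, SE 0.75, adjusted p = 1.63e-07 by edgeR). Both libraries of 4 h were above every other library of the set. At 2 h it stood at 1.04 and 1.42 CPM (2.39, SE 0.76, adjusted p = 0.0127), a call lost without NC 0 h replicate 1 (adjusted p = 0.103) or NC 2 h replicate 2 (adjusted p = 0.0726). In the KO label IL6 had 0 to 8 counts in all 10 libraries, too low to read, although the test over the times called it.

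CXCL2 was the member with a peak in both labels, at different labelled times. In KO it stood at 1.24 and 0.806 CPM at 0 h, 0.829 and 1.68 at 2 h, 0.699 and 0.646 at 4 h, 7.40 and 7.05 at 6 h, and 1.50 and 1.01 at 8 h. The 6 h libraries were above all others (log2 change against 0 h 2.81, SE 0.57, adjusted p = 5.47e-05 by edgeR). In NC it stood at 0.269 and 0 CPM at 0 h and at 1.79 and 2.19 at 4 h, with at most 0.632 CPM at the other times (adjusted p = 3.79e-05 for 4 h). CXCL3, its close copy, showed no such peak in KO, at 40 and 37 counts at 6 h against 28 and 36 at 0 h (-0.15, SE 0.65, adjusted p = 0.886).

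IL11 also stood highest at NC 4 h, at 12.5 and 16.8 CPM against 5.96 and 4.41 at 0 h (log2 change 1.49, SE 0.26, adjusted p = 4.00e-06 by edgeR) and 4.41 to 7.55 at all other NC times. In KO it stayed between 1.44 and 3.70 CPM, and the test over the times missed the threshold (adjusted p = 0.0501; 0.0270 without KO 6 h replicate 2 and 0.0216 without KO 8 h replicate 2). Scaled to ribosomal protein genes IL11 did pass over the KO times (adjusted p = 0.00538 by edgeR). It also passed without the filter on low counts (0.0477) and on the molecule scale (0.00634 by limma). With counts halved (0.0619 by edgeR) or without NC 4 h and KO 6 h (0.0993) it did not pass. CXCL8 at NC 4 h had 40 and 46 counts against 6 and 6 at 0 h (2.76, SE 0.45, adjusted p = 1.17e-06). In KO it stood at 24.0 and 19.3 CPM at 0 h and at 31.8 and 30.5 at 8 h (0.52, SE 0.19, adjusted p = 0.0366). That call was lost without KO 0 h replicate 2 (adjusted p = 0.321) or either KO 8 h library (0.145 and 0.0984), and the molecule scale gave the opposite sign, -1.27. The test of CXCL8 over the KO times was lost without either 8 h library (adjusted p = 0.104 and 0.0672).

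**Figure D3:**
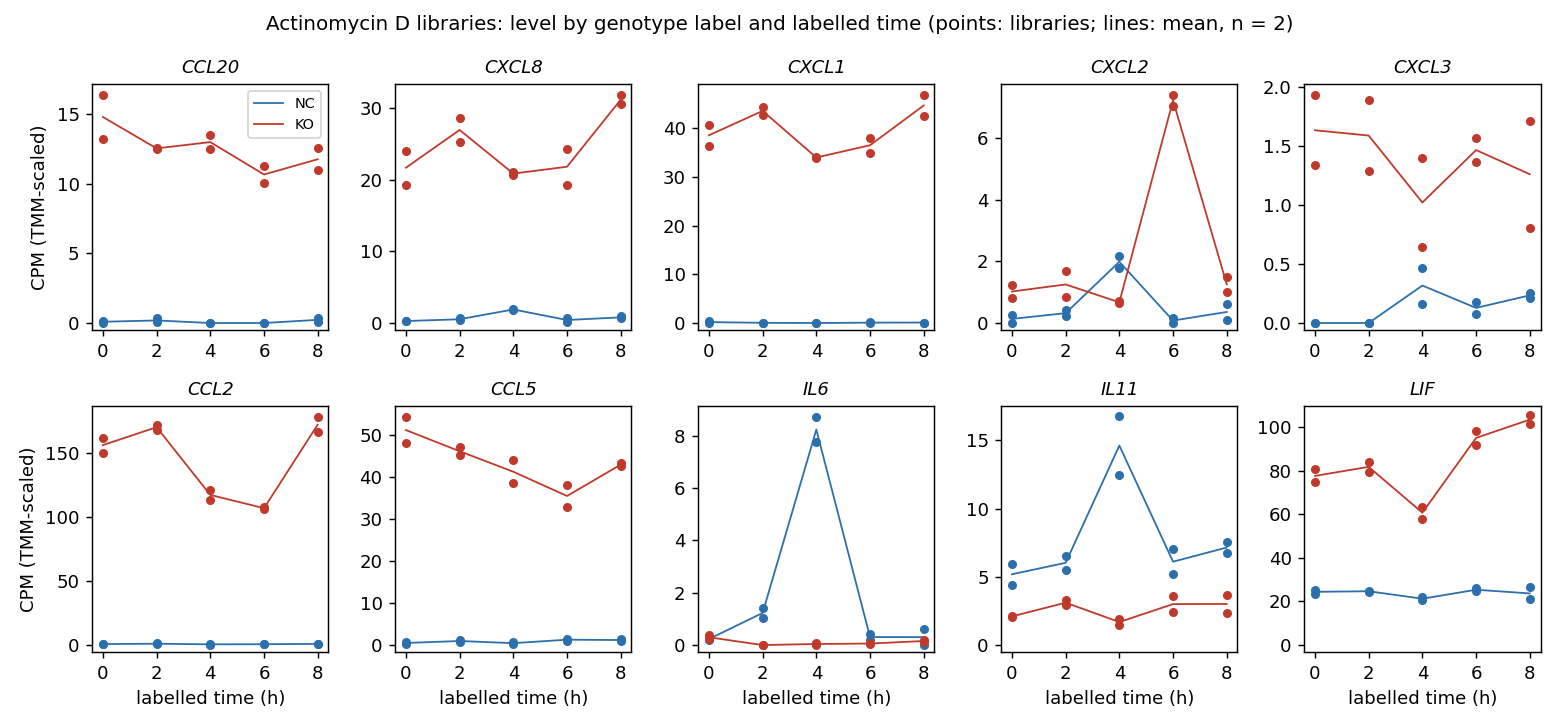
Level of each of the 10 transcripts in CPM after TMM scaling against labelled time in hours (linear axes, one per gene); points are libraries and lines join the means of 2 libraries, NC in blue and KO in red. IL6 and IL11 peak at 4 h in NC, CXCL2 peaks at 6 h in KO and less at 4 h in NC, and CCL2, CCL5, CXCL1, CXCL8 and CCL20 lie near 0 in NC at all times.

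In TMM-scaled CPM the abundant chemokines of the KO label stayed within 0.55 of their 0 h level on the log2 scale. On the molecule scale, whose median gene was 1.77 lower at KO 8 h, CCL20 stood there at -2.20, CCL5 at -2.13, CCL2 at -1.96 and CXCL1 at -1.70. CCL2 stood at 162 and 150 CPM at 0 h, 168 and 172 at 2 h, 121 and 113 at 4 h, 108 and 106 at 6 h, and 178 and 166 at 8 h. It was lower than at 0 h at 4 h (log2 change -0.41, SE 0.09, adjusted p = 0.000244 by edgeR) and at 6 h (-0.55, SE 0.09, adjusted p = 1.25e-06) and not at 8 h (0.14, SE 0.09). Scaling to ribosomal protein genes put the median gene 0.52 (log2) above 0 h at KO 6 h; there CCL2 stood at 0.10 and CCL5 at 0.12, neither called, and CXCL8 at 0.65 and CXCL1 at 0.57, both called higher. At KO 4 h, with the median gene 0.29 above 0 h on that scaling, CCL2 stood at -0.06 and was not called (adjusted p = 0.645). CCL5 stood at 48.1 and 54.3 CPM at 0 h and 38.2 and 32.8 at 6 h (-0.53, SE 0.15, adjusted p = 0.00239; 0.0612 without KO 6 h replicate 2). The test of CCL5 over the KO times was lost without KO 0 h replicate 2 (adjusted p = 0.145) or KO 6 h replicate 2 (0.205). CXCL1, at 33.9 to 46.8 CPM, and CCL20, at 10.1 to 16.4 CPM, did not pass over the times in KO (adjusted p = 0.119 and 0.519). Scaled to ribosomal protein genes both passed (adjusted p = 0.00283 and 0.0256), and halved counts, tried because low counts were mostly even, called CXCL1 (adjusted p = 0.0167).

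LIF in KO stood at 74.7 and 80.6 CPM at 0 h, 63.5 and 58.0 at 4 h, 91.9 and 98.2 at 6 h, and 106 and 101 at 8 h. It was lower than at 0 h at 4 h (log2 change -0.35, SE 0.09, adjusted p = 0.00133 by edgeR) and higher at 6 h (0.29, SE 0.08, adjusted p = 0.00354) and 8 h (0.41, SE 0.09, adjusted p = 0.000231). On the molecule scale, whose median gene was 0.55 lower at KO 6 h and 1.77 lower at KO 8 h on the log2 scale, LIF stood at -0.12 and -1.45. Scaled to ribosomal protein genes it was called at neither 4 h (-0.002, adjusted p = 0.9998) nor 8 h (0.19, adjusted p = 0.107). At 6 h it was called higher on that scaling (0.94, adjusted p = 1.32e-12 by edgeR), where the median gene stood 0.52 above 0 h. On TMM-scaled counts the 6 h call was lost without KO 0 h replicate 1 (log2 change 0.24) or KO 6 h replicate 2 (0.24). In NC it stayed between 20.6 and 26.4 CPM and did not pass over the times (adjusted p = 0.190; 0.0478 without NC 8 h replicate 1). It did pass with DESeq2's size factors in edgeR (adjusted p = 0.0319), without the filter on low counts (0.0125), on the molecule scale (8.91e-08) and when scaled to ribosomal protein genes (7.56e-06).

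Other genes of the list of NF-kappaB and inducers stood high in the same libraries as CXCL2 and IL6. At NC 4 h 16 of 23 were higher than at 0 h and 2 lower (median log2 change 1.34), where 27.1% of all genes were called higher and 24.4% lower. At KO 6 h 14 were higher and 5 lower (median 0.50), where 19.7% of all genes were called higher and 28% lower. On the molecule scale 8 were higher and 8 lower at KO 6 h (median 0.12). On that scale 1733 of 17715 genes were higher and 6981 lower (median -0.55). NFKBIA, the inhibitor that NF-kappaB itself induces, stood at 84.5 and 74.4 CPM at KO 6 h against 2.19 and 3.60 at 0 h, and at 26.5 and 24.7 CPM at NC 4 h against 1.26 and 1.69. CEBPB, a transcription factor of acute inflammation, stood at 50.9 and 55.4 CPM at KO 6 h against 7.54 and 7.30, and at 84.1 and 86.5 at NC 4 h against 12.8 and 16.1. SOCS3, the feedback inhibitor of IL6-family receptors, is from the list of 7 IL6-family signalling genes. It stood at 74.8 and 82.6 CPM at KO 6 h and 29.4 and 25.4 at NC 4 h. At the other times of both labels it stood at 4.28 to 8.13 CPM. On TMM-scaled counts 2 genes of that list were higher and 5 lower at NC 4 h and at KO 6 h (medians -0.46 and -0.41). Scaled to ribosomal protein genes 4 were higher and 0 lower at NC 4 h, and 5 and 0 at KO 6 h. On that scaling 9790 of 17715 genes were higher and 213 lower at NC 4 h, and 9192 and 102 at KO 6 h. On the molecule scale the counts of that list were 2 and 2 at NC 4 h and 1 and 5 at KO 6 h. There 5698 of all genes were higher and 1200 lower at NC 4 h, and 1733 and 6981 at KO 6 h. ZFP36, from the list of decay factors, rose at KO 6 h, to 456 and 449 CPM from 68.1 and 57.9. It stood at 12.7 and 12.8 CPM at NC 4 h against 8.92 and 8.54. These genes were chosen after their values were seen. Whether the labelled times of these libraries are the true ones was not tested.

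**Figure D4:**
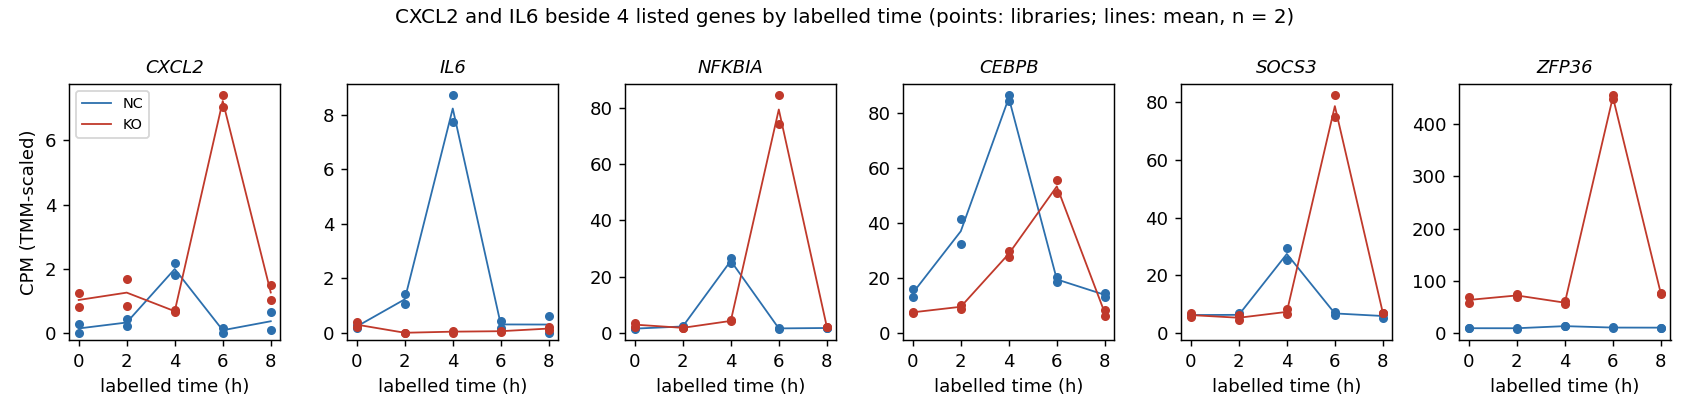
CXCL2 and IL6 beside NFKBIA, CEBPB, SOCS3 and ZFP36: CPM after TMM scaling against labelled time in hours (linear axes, one per gene), points for libraries and lines through the means of 2 libraries, NC in blue and KO in red. The NC libraries are highest at 4 h in every panel, in that of ZFP36 only at 12.7 and 12.8 CPM, and the KO libraries peak at 6 h in all panels but IL6.

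Across the 20 actinomycin D libraries, with the mean of each label removed, the genes most like each member in log2 CPM were listed as a description; the libraries share their depth and scaling. IL6 was most like CEMIP2 (Pearson r 0.94), ANKRD28 (0.89) and DACT1 (0.89). CXCL2 was most like SNORA27 (0.92), SPRY4, an inhibitor of growth factor signalling (0.91), and SNORD49A (0.90). The nearest gene was ZNF331 for IL11 (0.87), MUTYH for CXCL8 (0.87), LINC00323 for CCL5 (0.85), TRPT1 for CCL2 (0.81) and RPL7P23 for LIF (0.79). For CCL20, CXCL1 and CXCL3 it was KCNH1-IT1 (0.81), TLCD3B (0.81) and HYMAI (0.79), with NC libraries at 0 to 10 counts.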

How the data were processed

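Per the labels' protocols, RNA came from TRIzol extraction, and the Hieff NGS Ultima Dual-mode mRNA kit served to prepare it for sequencing. The submitters' processing notes name STAR, RSEM, Bowtie2, deepTools and hg19, without versions or roles; neither the annotation nor strand use is stated. The steady-state tables deposited by the authors hold expected counts and TPM, per the file headers. For the other set the authors deposited read counts, RPKM and log2 molecule values. Expected counts (10.2% not whole) were rounded, and 45 pseudoautosomal copies were added to their partners.

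Tests used edgeR 4.0.16 under R 4.3.3 (low-count filter filterByExpr, TMM, robust quasi-likelihood F test, Benjamini-Hochberg adjustment over all genes, threshold 0.05): KO against NC over the 6 steady-state libraries, and over all 20 actinomycin D libraries with a mean per label and time, or a slope over hours. The SE was taken as the size of the log2 change over the root of F. Scripts were tested on simulated data. The test between the courses of the labels, and the fits without NC 4 h and KO 6 h and with counts halved, were added after seeing the data. Other alternatives were DESeq2 1.42.0, RLE factors, no filter, length offsets, a replicate block, scaling to ribosomal protein genes, limma 3.58.1 on the log2 molecule values (0 counts set at 0.5 of a read), 0 h alone, no 8 h, and each library left out.

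The members and the 5 gene lists were chosen with earlier results of these data known. Named were the members, the 3 called genes of each list with the largest change in the steady state and at 0 h, and the 3 genes most like each member; others are marked. Libraries with the same replicate number deviated from their groups with correlations of -0.11 to 0.06 in the steady state and -0.04 to 0.03 under actinomycin D, so numbers were not treated as pairs. Replicates differed by more than sampling noise (chi-square per degree of freedom 3.81 to 42.8).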

Additional observations from a re-analysis of the deposited data

Results flagged for a closer look

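In 7 members every KO library lay below every NC library in the steady state and above both NC libraries at 0 h of the actinomycin D set, where 29.6% and 42.9% of all genes lay so in the respective set; the difference between the sets was not tested, and each set was tabulated on its own. The log2 changes, steady state and then 0 h, were -2.10 and 7.25 for CCL20, -1.28 and 6.27 for CXCL8, -0.65 and 7.67 for CXCL1, -0.67 and 2.86 for CXCL2, -1.08 and 8.21 for CXCL3 (the latter a fitted value against 0 counts), -0.44 and 7.64 for CCL2, and -3.26 and 6.65 for CCL5.

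The course over the labelled times differed between the labels in 8 members by edgeR's test of the difference, where 55.3% of all genes were called. The adjusted p was 2.26e-07 for CXCL2, 4.25e-06 for CXCL8, 1.27e-05 for IL6, 4.06e-05 for IL11, 0.000614 for CCL5, 0.00127 for LIF, 0.00248 for CXCL3 and 0.0107 for CCL20. For CCL20, CXCL3 and IL6 one label held 10 counts or fewer in every library. Without the libraries labelled NC 4 h and KO 6 h the calls were CCL5, CXCL3, IL6 and LIF, with 33.8% of all genes called. On the molecule scale CCL20 (adjusted p = 0.0550) and CCL5 (0.0880) were not called.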

How the results depend on the processing

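With the replicate block, the members called were 7 in the steady state, 9 at 0 h, 7 over the NC times, 6 over the KO times, 8 between the courses and 0 for the slope difference, as without it; it changed none of these counts. Without the libraries labelled NC 4 h and KO 6 h the counts over the times were 3 in NC, 2 in KO and 4 between the courses; these fits hold fewer times. Leaving out each library in turn gave 7 to 7 members in the steady state, 8 to 9 at 0 h, 7 to 8 over the NC times, 5 to 6 over the KO times, 8 to 9 between the courses and 0 to 0 for the slope difference. Of single values over all alternatives, 2616 were on the same side of the threshold, 59 lost a call, 51 gained one and 12 turned in sign where the main or the alternative fit called them; signs also differed in 142 values that neither called. On the molecule scale LIF stood at -0.12 for the KO slope, -0.44 at NC 6 h, and -0.68, -0.12 and -1.45 at KO 2, 6 and 8 h, and at KO 8 h CXCL8 stood at -1.27, CCL2 at -1.96 and IL11 at -1.08. Scaled to ribosomal protein genes, LIF stood at 0.42 at NC 4 h, and at KO 6 h CXCL1 stood at 0.57, CCL2 at 0.10 and CCL5 at 0.12. Depth limits IL6 in the steady state and in the KO label, and CCL20, CXCL1 and CXCL3 in the NC label. Low counts of the actinomycin D tables were more often even than odd, in 62.9% of 92458 values of 1 to 10 and 89.5% of 38 such values of the members; halved counts gave 9 member calls at 0 h, 7 in NC, 6 in KO and 8 between the courses, as many as before, but over the KO times IL6 was lost (adjusted p = 0.114) and CXCL1 gained (0.0167).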

Other observations

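At the same labelled times 6 of 18 other ligands were called at NC 4 h, where 51.5% of all genes were, and 8 of 18 at KO 6 h, where 47.7% were; the times were chosen after the values were seen. At NC 4 h 4 were higher than at 0 h and 2 lower, where 27.1% of all genes were higher and 24.4% lower. On the molecule scale, and likewise after ribosomal protein scaling, 5 were higher and 0 lower. Of 17715 genes, 5698 were higher and 1200 lower on the molecule scale, and 9790 and 213 after ribosomal protein scaling. CLCF1, a cytokine of the IL6 family, stood at 17.9 ± 0.0996 against 5.91 ± 0.197 CPM (SD, n = 2, log2 change 1.60, SE 0.20). IL15, a growth factor of natural killer cells, stood at 4.77 ± 1.03 against 1.93 ± 1.07 (1.30, SE 0.44) and CSF1, the macrophage growth factor, at 12.5 ± 1.37 against 5.56 ± 0.501 (1.17, SE 0.14). At KO 6 h 5 were higher and 3 lower, where 19.7% of all genes were higher and 28% lower. Scaled to ribosomal protein genes 8 were higher and 0 lower, beside 9192 higher and 102 lower of all genes. On the molecule scale 3 were higher and 3 lower, beside 1733 higher and 6981 lower of all genes. CSF2, another AU-rich cytokine, had 39 to 49 counts at KO 6 h against 2 to 4 at 0 h, TNF had 14 to 46 against 0 to 2, and IL12A had 4 to 10 against 0 and 0.

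Of 22 decay factors 12 were higher and 4 lower at NC 4 h (median log2 change 0.26), where 27.1% of all genes were higher and 24.4% lower. Scaled to ribosomal protein genes 22 were higher and 0 lower, and on the molecule scale 16 and 0. These scalings put the median gene 0.61 and 0.32 above 0 h. Of 17715 genes, 9790 were higher and 213 lower on the former, and 5698 and 1200 on the latter. The most raised decay factors were ZFP36L2, a relative of ZFP36, at 85.5 ± 3.77 against 13.2 ± 1.37 CPM (log2 change 2.70, SE 0.12), and N4BP1, at 31.8 ± 1.85 against 7.64 ± 1.05 (2.05, SE 0.16). At KO 6 h 9 were higher and 6 lower (median 0.06), where 19.7% of all genes were higher and 28% lower. Scaled to ribosomal protein genes 21 were higher and 0 lower, beside 9192 higher and 102 lower of 17715 genes. On the molecule scale 9 were higher and 11 lower, beside 1733 higher and 6981 lower of all genes. ZC3H12A, an endonuclease that cuts IL6 messages, stood at 22.3 ± 1.55 against 3.21 ± 0.589 CPM there (2.79, SE 0.23), and ARID5A, which protects them, at 10.3 ± 0.889 against 1.87 ± 0.0583 (2.47, SE 0.33).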
